A study of Mus musculus with 6 samples.

Results

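Galectins are small lectins that bind β-galactosides, and the genes described here are the galectins Lgals1, Lgals3, Lgals8 and Lgals9 together with Lgals3bp, whose product is not a galectin but a secreted glycoprotein that galectins bind. These 5 genes were chosen by name, and they are 5 of the 22939 genes in the count table. All 5 passed the filter on low counts, which left 13463 genes to test. To ask how sorafenib alters mouse regulatory T (Treg) cells, the study sequenced RNA of control cells (ctrl-Treg) and of cells cultured with the drug (Sora-Treg), in 3 libraries each. Sorafenib (Sora) is a multikinase inhibitor used in liver cancer. Both groups started from naive CD4+ T cells of female Foxp3 GFP knock-in C57BL/6 mice, in which the reporter sits in the Foxp3 locus itself. Both were stimulated with anti-CD3 and anti-CD28 antibodies, cultured with TGF-β1, anti-IFN-γ and anti-IL4, and sorted for GFP, so Sora was the difference between the groups. The Sora concentration and the days of culture of these libraries, the age of the Foxp3 GFP mice, and whether the replicates were separate cultures or animals were not given in the sources used here, so the p-values measure only the spread between these samples. The cells are induced Treg cells made in culture, and no naive or tissue Treg cells were sequenced.

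Galectins are made in the cytosol and reach the cell surface without a classical secretion signal. There they cross-link glycans that carry N-acetyllactosamine, and so hold surface receptors in lattices that set signalling and survival. Galectin-1 (Lgals1) is a homodimer with a role in suppression by Treg cells and in the death of activated T cells. Galectin-3 (Lgals3) is the chimera member, whose long N-terminal tail lets it form oligomers, and it binds the T cell receptor complex and LAG-3. Galectin-8 (Lgals8) and galectin-9 (Lgals9) are tandem-repeat members, with a pair of carbohydrate domains on a single chain. Galectin-8 also marks damaged endosomes for autophagy, and galectin-9 is a ligand of TIM-3, CD44 and 4-1BB. Galectin-3-binding protein (Lgals3bp) belongs to the scavenger receptor cysteine-rich family. Lgals9 and Lgals3bp are known as interferon-inducible genes.

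In GENCODE M21 (build GRCm38), all 5 are protein-coding genes. Lgals1 lies on chromosome 15, from 78926725 to 78930465 on the plus strand, and Lgals3 on chromosome 14, from 47367751 to 47386160 on the plus strand. Lgals8 lies on chromosome 13, from 12439415 to 12464944 on the minus strand. Lgals9 (78962974 to 78984946) and Lgals3bp (118392751 to 118402092) are both on the minus strand of chromosome 11. The annotation holds 2 transcripts of Lgals1, 6 of Lgals3, 10 of Lgals8, 4 of Lgals9 and 5 of Lgals3bp, which the deposited counts do not separate.

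RefSeq (GRCm38.p6) gave promoter windows, from 250 bases before to 50 after the start site, for 4 of the 5 genes, Lgals1 being without an entry. Motifs were searched on both strands. The interferon-stimulated response element GAAANNGAAA occurred in 3.45% of all 32544 windows. It occurred in any window of 11 of the 20 interferon-inducible genes with a window (55%), which is a share of genes and not of windows. The shorter interferon regulatory factor element AANNGAAA, which every match of the longer motif also contains, occurred in 23.9% of windows. By gene, it occurred in 15 of the same 20 (75%). Lgals9 held 2 matches to the longer motif and 3 to the shorter, 2 of them inside the longer ones, and Lgals3bp held none of the longer and 1 match to the shorter. Lgals3 and Lgals8 held neither. The remaining motifs were the gamma-activated sequence TTCNNNGAA (8.33% of windows), the AP-1 site TGANTCA (7.79%), the hypoxia response element core ACGTG (19.7%) and the GC box GGGCGG (35.9%), and among the 4 windows only Lgals3 held one of these, with 2 GC boxes. The matches to the longer motif in Lgals9 and to the shorter in Lgals3bp are shown, because Lgals9 and Lgals3bp are set beside interferon-inducible genes below, 5′ to 3′ on the gene's strand, with the matched letters in capitals (on the opposite strand in the case of the Lgals9 sequences).
Lgals9, chr11:78984960-78984989, minus strand, match from -55 to -46 of the start site: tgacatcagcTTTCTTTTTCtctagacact
Lgals9, chr11:78984890-78984919, minus strand, match from 16 to 25 after the start site: atagctgtggTTTCTGTTTCctagctcagc
Lgals3bp, chr11:118401955-118401984, minus strand, match from -14 to -7 of the start site: tgttttctgaaAATCGAAActaggtgaggt
All 30 bases of the Lgals3bp sequence lie in GENCODE exons of that gene, although the match is before the RefSeq start site. The RefSeq windows of Lgals3 and Lgals8 lie inside the GENCODE gene spans given above and not at their ends. A match is a description of letters and not evidence of binding.

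The libraries held between 30727686 and 37717324 counts, at which a floor of 3 counts is 0.0795 to 0.0976 CPM (counts scaled to library size), counting error only. The biological coefficient of variation was 4.29%. Summed Treg markers were 3560 to 3606 CPM in ctrl-Treg and 6444 to 6553 CPM in Sora-Treg libraries, and summed CD4+ T cell markers 1762 to 1788 and 2435 to 2482 CPM. The libraries thus carried RNA of both marker lists, and these sums do not by themselves show Treg identity. Most of the Treg sum was Il2ra (means of 1934 and 3795 CPM) and Ctla4 (383 and 1108 CPM). Of the 8 Treg markers, 6 were called higher, as were 29.7% of all tested genes, and 2 were not called. The median log2 fold change of these 8 was 0.28. Of 14 myeloid markers, all with counts, 12 could be tested. Of these, 7 were lower in Sora-Treg cells and none higher, where 29.9% of all tested genes were lower and 29.7% higher. All 7 went beyond 2-fold, as did 11.3% of all tested genes in either direction. The median log2 fold change of the 12 tested markers was -1.54. The sum of the 14 markers moved less clearly, at 233, 239 and 150 CPM in ctrl-Treg and 146, 179 and 146 CPM in Sora-Treg libraries. Summed markers of B cells were 9.71 to 10.7 and 6.09 to 7.68 CPM, of CD8+ T cells 13.2 to 15.1 and 12.6 to 13.8 CPM, and of NK cells 2.13 to 2.34 and 4.12 to 4.99 CPM (the last almost wholly Eomes, which T cells also express). Of 5 B cell markers, 4 were tested and all 4 were lower (background 29.9%), with a median log2 fold change of -2.13. In bulk RNA, fewer cells of a type and less RNA per cell cannot be told apart.

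Lgals1 and Lgals3 rose in Sora-Treg cells, whereas Lgals9, Lgals3bp and, by a small margin, Lgals8 fell. Differences were tested with the quasi-likelihood test of edgeR on the counts, with Benjamini-Hochberg adjustment over all genes tested, and were called at an adjusted p under 0.05. All 5 genes were called, against a background in which 59.6% of all tested genes were. Of these, 2 were higher (background 29.7%) and 3 lower (background 29.9%). The groups did not overlap in CPM for any of the 5, as held for 63.7% of all tested genes. Only Lgals1 and Lgals3 also went beyond 2-fold, the limit for a differentially expressed gene (DEG), which 11.3% of tested genes passed.

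Lgals3, the chimera galectin, changed most. Its level per transcript length was 13.0, 11.2 and 10.9 FPKM (fragments scaled by transcript length and library total) in the ctrl-Treg libraries and 57.7, 59.2 and 62.9 FPKM in the Sora-Treg libraries. Every Sora-Treg library lay above every ctrl-Treg library, and the ctrl-Treg values spread from 10.9 to 13.0 FPKM. Behind these values were 687, 551 and 472 counts against 2559, 2765 and 3282. Scaled for library composition, the level went from 15.8 ± 1.45 to 87.8 ± 4.03 CPM (SD, n = 3), a 5.54-fold rise, with a log2 fold change of 2.47 ± 0.06 (SE, 95% interval 2.35 to 2.59, edgeR adjusted p = 6.16e-20). Of the 13463 tested genes, 171 had a higher log2 fold change. In FPKM, Lgals3 moved from rank 4830 to rank 918 among the tested genes. Macrophages also express Lgals3. The summed myeloid markers were 150 to 239 CPM in ctrl-Treg and 146 to 179 CPM in Sora-Treg libraries. Of the 12 tested, 7 were lower (background 29.9%) and none higher (background 29.7%), with a median log2 fold change of -1.54. The part of myeloid cells in the result was not tested.

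Lgals1, the homodimer galectin, was the most abundant of the family per length in both groups. It was at 199.8, 200.8 and 203.4 FPKM in ctrl-Treg cells and at 385.9, 361.9 and 373.8 FPKM in Sora-Treg cells. The ctrl-Treg values were almost equal, and the lowest Sora-Treg value lay far above them. Its counts were 6030, 5634 and 5001 against 9736, 9623 and 11090. The scaled level rose from 155 ± 1.72 to 311 ± 9.49 CPM (SD, n = 3), with a log2 fold change of 1.01 ± 0.03 (SE, 95% interval 0.94 to 1.07, edgeR adjusted p = 5.99e-18), and 863 tested genes had a higher one. The interval spans the 2-fold limit, and the rise was under that limit with 6 of the alternative settings and without Sora-Treg replicate 1, which left 1 DEG among the 5 genes, although the increase itself was called in every setting. Lgals1 has processed pseudogenes on chromosomes 15 and 17 that are not rows of the table, and how reads shared with them were counted was not given in the sources used here.

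Lgals9, the tandem-repeat ligand of TIM-3, fell. Its levels were 51.4, 53.5 and 51.5 FPKM in ctrl-Treg and 33.9, 34.0 and 32.0 FPKM in Sora-Treg libraries. The groups were well apart, and the values within each were close together. The counts were 3077, 2977 and 2508 against 1694, 1795 and 1884. The scaled level went from 79.5 ± 2.0 to 55.0 ± 1.83 CPM (SD, n = 3), 0.692 times the control level, and the log2 fold change was -0.53 ± 0.04 (SE, 95% interval -0.62 to -0.44, edgeR adjusted p = 2.08e-10). A lower log2 fold change was found for 1832 tested genes.

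Lgals3bp, the galectin ligand, fell further than Lgals9. It was at 29.9, 29.6 and 29.2 FPKM in ctrl-Treg cells and at 16.6, 14.9 and 15.7 FPKM in Sora-Treg cells. The ctrl-Treg libraries were all near the same value, and every Sora-Treg library lay below them. Counts were 2593, 2387 and 2065 against 1206, 1142 and 1342. The change was from 65.4 ± 0.627 to 37.8 ± 1.96 CPM (SD, n = 3), or 0.577 times the control level, with a log2 fold change of -0.79 ± 0.05 (SE, 95% interval -0.89 to -0.69, edgeR adjusted p = 1.26e-12), and 1043 tested genes had a lower one. The part of myeloid cells in this result, by the sums and calls given above, was not tested.

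Lgals8, the other tandem-repeat galectin and a sensor of damaged vesicles, differed least. Its values were 12.2, 11.9 and 10.9 FPKM in ctrl-Treg and 9.65, 9.41 and 9.94 FPKM in Sora-Treg libraries. The ctrl-Treg values lay just above the Sora-Treg values, with replicate 3 of both groups nearest to each other. Its counts were 1426, 1290 and 1041 against 944, 970 and 1143. The scaled level was 34.8 ± 1.91 against 31.2 ± 0.846 CPM (SD, n = 3), and the log2 fold change was -0.16 ± 0.06 (SE, 95% interval -0.28 to -0.04, edgeR adjusted p = 0.0230). The call was lost in DESeq2 (adjusted p = 0.0577), and in edgeR without ctrl-Treg replicate 1 (adjusted p = 0.117), ctrl-Treg replicate 2 (0.0759), Sora-Treg replicate 1 (0.0566) or Sora-Treg replicate 2 (0.0698). Lgals8 overlaps Heatr1 on the opposite strand, with 155 shared exonic bases, 4.2% of the exonic bases of Lgals8. Heatr1 itself fell, with a log2 fold change of -0.73 ± 0.04 (edgeR adjusted p = 3.85e-13), and since the strand setting of the counting is not known, reads from the shared bases cannot be told apart.

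**Figure D1:**
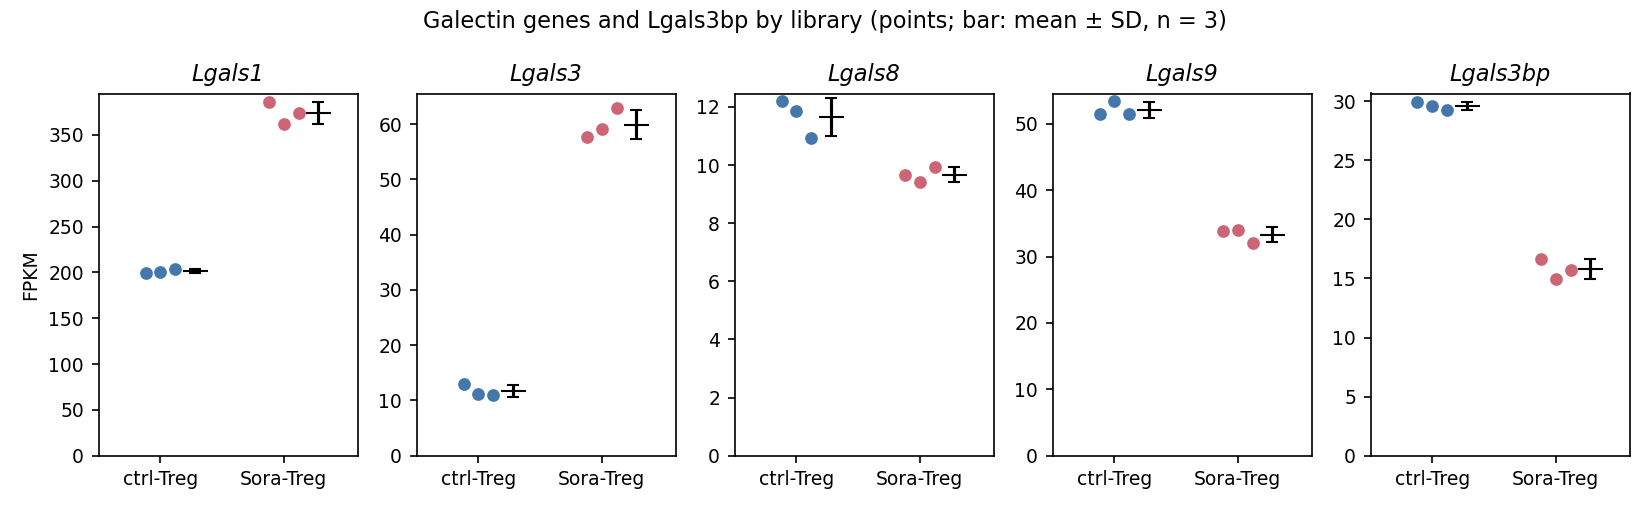
Level of each gene in FPKM (vertical axes, each starting at 0 and on its own scale) in the 3 ctrl-Treg (blue) and 3 Sora-Treg (red) libraries, with black bars for the mean ± SD. Lgals1 and Lgals3 were higher in every Sora-Treg library, Lgals9 and Lgals3bp lower, and the groups of Lgals8 lay closest, at 10.9 FPKM and above against 9.94 FPKM and below.

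The order of the genes per length therefore differed between the groups. In ctrl-Treg cells the order in FPKM was Lgals1, Lgals9, Lgals3bp and then Lgals3 and Lgals8, whose ranges overlapped. In Sora-Treg cells it was Lgals1, Lgals3, Lgals9, Lgals3bp and Lgals8, with no overlap between neighbours. In rank among the tested genes by FPKM, Lgals1 went from 236 to 152, Lgals9 from 1129 to 1765, Lgals3bp from 2144 to 3611 and Lgals8 from 4837 to 5156.

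The make-up of the 4 galectins, without Lgals3bp, was then expressed as shares of their summed FPKM. Lgals4 was not among these 4, although its mean of 13.4 FPKM in ctrl-Treg and 14.2 FPKM in Sora-Treg libraries was above that of Lgals8 in both groups. The shares are therefore not those of all galectins in the cells. The sum of the 4 was 276 to 277 FPKM in ctrl-Treg and 464 to 487 FPKM in Sora-Treg libraries, a 1.72-fold difference of the means. Lgals1 held 72.7 ± 0.674% of it without Sora and 78.4 ± 0.712% with Sora, and Lgals3 4.22 ± 0.405% and 12.6 ± 0.665% (SD, n = 3). The share of Lgals9 was 18.8 ± 0.401% without and 6.99 ± 0.321% with Sora, and that of Lgals8 4.21 ± 0.238% and 2.03 ± 0.0473%. For each of the 4 genes the shares of the groups did not overlap. Shares of counts in place of FPKM, which weigh longer transcripts more, moved the differences by over 1.5 times for Lgals1 (9.79 against 5.67 percentage points), Lgals3 (12.5 against 8.36) and Lgals8 (-5.77 against -2.18), with the same directions. The ratio of Lgals1 to Lgals9 went from 3.86 ± 0.102 to 11.2 ± 0.540, and that of Lgals3 to Lgals9 from 0.224 ± 0.0239 to 1.80 ± 0.142, so that Lgals3 was below Lgals9 in every ctrl-Treg library and above it in every Sora-Treg library. Conversely, Lgals1 exceeded Lgals3 by a factor of 17.3 ± 1.69 without Sora and of 6.25 ± 0.391 with it. Each of these shares and ratios had p = 0.1 in a two-sided exact permutation test, the smallest p that 3 libraries against 3 can give.

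**Figure D2:**
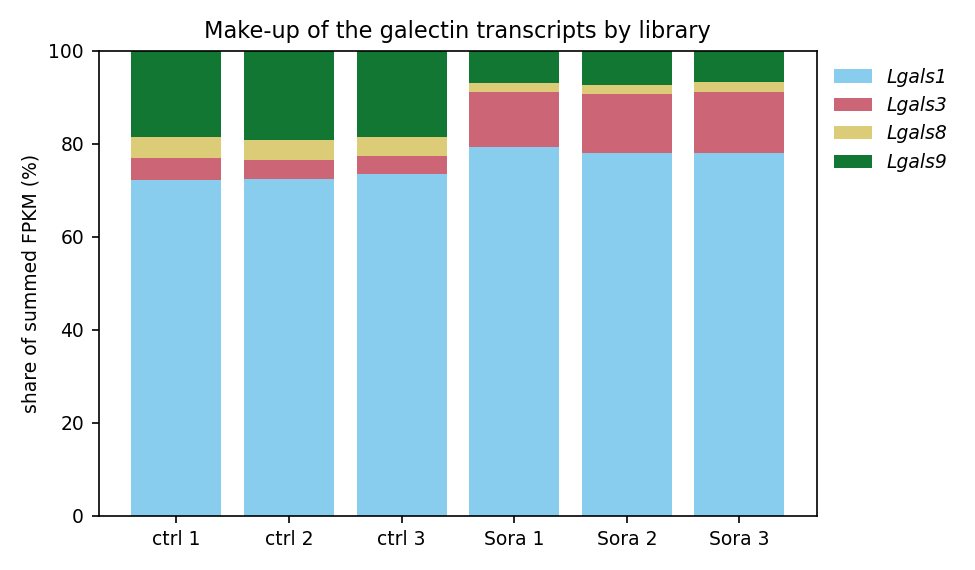
Stacked bars of the share of Lgals1, Lgals3, Lgals8 and Lgals9 in their summed FPKM (%), 1 bar per library. The Lgals9 segment shrank from 18.8% on average in ctrl-Treg libraries to 6.99% in Sora-Treg libraries, and the Lgals3 segment grew from 4.22% to 12.6%.

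Of the remaining galectin-fold genes, 8 were listed, 5 were in the table and 4 could be tested. Of these 4, 3 were higher (background 29.7%) and none lower (background 29.9%). Their median log2 fold change was 0.57, where the median of all tested genes was -0.0035. Lgals7, a galectin of stratified epithelia, was very low, with 14, 22 and 13 counts in ctrl-Treg and 66, 68 and 81 in Sora-Treg libraries. Its level rose from 0.456 ± 0.131 to 2.19 ± 0.0732 CPM, with a log2 fold change of 2.26 ± 0.31 (edgeR adjusted p = 1.57e-06) and no overlap between the groups. Lgalsl, a galectin-related protein that does not bind lactose, rose from 8.0 ± 0.885 to 15.3 ± 1.82 CPM (log2 fold change 0.94 ± 0.10, edgeR adjusted p = 6.07e-08). Lgals4, an intestinal tandem-repeat galectin, went from 27.4 ± 1.10 to 31.4 ± 1.42 CPM, by 0.19 ± 0.06 in log2 (edgeR adjusted p = 0.00833) that was not called when libraries were scaled by their totals alone (adjusted p = 0.274). The lens protein gene Grifin was not called, at 0.570 ± 0.141 and 0.443 ± 0.0687 CPM (log2 fold change -0.36, edgeR adjusted p = 0.469). Lgals12 had 4 counts in ctrl-Treg replicate 1 and none elsewhere, and Lgals2, Lgals6 and Lgalsl2 were not analysed here. Lgals6 is a close copy of Lgals4 in some mouse strains. Unlike Lgals4, it had no entry among the gene positions used here, and any effect of such a copy on the counts of Lgals4 was not tested.

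**Figure D3:**
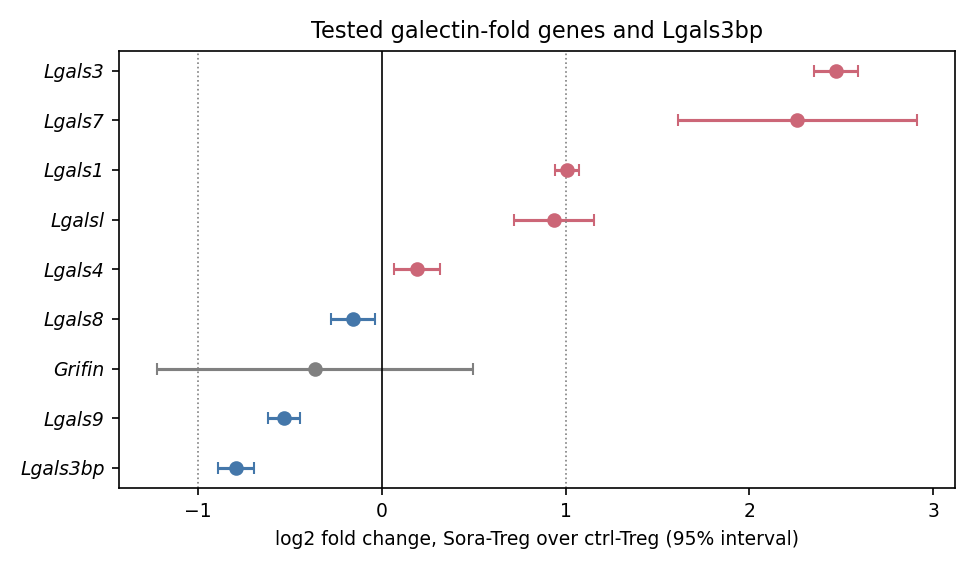
Log2 fold change of Sora-Treg over ctrl-Treg cells (horizontal axis) with its 95% interval for the 8 tested galectin-fold genes and for Lgals3bp, red where higher, blue where lower and grey where not called, with dotted lines at the 2-fold limits. Lgals3 (2.47) and Lgals7 (2.26) stood above the upper limit, the interval of Lgals1 spanned it, and Lgals3bp (-0.79) was lowest.

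Surface glycoproteins and intracellular partners to which galectins bind were examined next. Of 38 listed genes, 37 were tested. Of these, 20 rose (background 29.7%), 12 fell (background 29.9%) and 5 were not called, with a median log2 fold change of 0.23. Tnfrsf9, which encodes the galectin-9 ligand 4-1BB, rose from 505 ± 4.56 to 2379 ± 11.4 CPM (log2 fold change 2.24 ± 0.02, edgeR adjusted p = 1.32e-26). The inhibitory receptor gene Ctla4 rose by 1.53, the adhesion receptor gene Cd2 by 1.08, the IL-2 receptor gene Il2ra by 0.97, the glucose transporter gene Slc2a1 by 0.72, Cd3e of the T cell receptor complex by 0.60 and the glycoprotein gene Thy1 by 0.59 on the log2 scale. P4hb, whose product, protein disulfide isomerase, is held at the T cell surface by galectin-9, rose by 0.93. Lag3, which encodes an inhibitory receptor bound by galectin-3, rose from 28.7 ± 0.637 to 48.1 ± 2.85 CPM (log2 fold change 0.75 ± 0.05, edgeR adjusted p = 5.30e-11). The inhibitory receptor genes of the list did not all rise. Pdcd1, chosen after its values were seen, fell from 26.3 ± 1.70 to 15.7 ± 0.949 CPM (log2 fold change -0.75 ± 0.07, edgeR adjusted p = 9.99e-09).

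Ptprc and Spn encode CD45 and CD43, mucin-like glycoproteins through which galectin-1 acts on T cells. They rose by 0.37 and 0.23 on the log2 scale (edgeR adjusted p = 6.76e-11 and 1.96e-07). Nrp1, the neuropilin-1 gene, fell from 96.7 ± 2.91 to 57.2 ± 0.919 CPM (log2 fold change -0.76 ± 0.04, edgeR adjusted p = 1.46e-13). Cd44, the gene of a hyaluronan receptor that galectin-9 binds, was not called (218 ± 5.58 and 212 ± 4.09 CPM, edgeR adjusted p = 0.230), but was called lower with libraries scaled by their upper quartile (log2 fold change -0.08) or totals (-0.16) and in all 3 limma fits on FPKM (-0.155 to -0.159). Havcr2, which encodes TIM-3, was low, at 1.80 ± 0.228 and 1.90 ± 0.0194 CPM, and was not called (edgeR adjusted p = 0.797), and its direction turned when libraries were scaled by totals. Among genes chosen after their values were seen, Vcam1 fell by 3.27 and Cd40 by 1.93 on the log2 scale. Both were low, Vcam1 at 2.50 ± 0.252 and 0.257 ± 0.103 CPM and Cd40 at 7.20 ± 0.703 and 1.88 ± 0.293 CPM. Macrophages and B cells can express these genes. The summed markers of both cell types, given above, were lower in Sora-Treg libraries, with overlapping ranges for myeloid cells. The median log2 fold changes of the tested markers were -1.54 for myeloid cells and -2.13 for B cells. The part of these cells in the result was not tested.

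The glycans that galectins bind are built by ordered sets of enzymes. Of 26 genes of N-glycan branching and galactosylation, 25 were tested. Here 11 rose (background 29.7%), 9 fell (background 29.9%) and 5 were not called, with a median log2 fold change of 0.15. With libraries scaled by their totals, 8 were higher and 12 lower. The UDP-galactose supply genes that rose included the Golgi transporter gene Slc35a2 (log2 fold change 0.79 ± 0.06) and the galactokinase gene Galk1 (0.64 ± 0.04). B4galt1, the main galactosyltransferase of N-acetyllactosamine, rose from 291 ± 10.7 to 386 ± 2.06 CPM (log2 fold change 0.41 ± 0.03, edgeR adjusted p = 3.13e-11). B3gnt2, which extends N-acetyllactosamine into the repeats that galectins bind tightly, fell from 121 ± 0.683 to 75.2 ± 3.74 CPM (log2 fold change -0.68 ± 0.04, edgeR adjusted p = 6.86e-13). Fut8, of core fucosylation, and Uap1, of UDP-GlcNAc synthesis, fell by 0.47 and 0.37. Mgat5, which adds the branch on which galectin-3 lattices depend, was at 81.9 ± 1.05 and 81.7 ± 4.02 CPM and was not called (95% interval of its log2 fold change -0.09 to 0.08, edgeR adjusted p = 0.943). It was called lower with libraries scaled by their totals (log2 fold change -0.119, edgeR adjusted p = 0.0140) and in limma on log2(FPKM + 1) and log2(FPKM + 0.1) (-0.112 and -0.120, adjusted p = 0.0387 and 0.0385). Mgat3, whose bisecting GlcNAc blocks branching, rose by 2.70 ± 0.48 from a level near the floor, 0.189 ± 0.163 CPM, to 1.28 ± 0.239 CPM.

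Among the enzymes of core 1 and core 2 O-glycans, 11 of 12 were tested. Here 8 were higher (background 29.7%), 2 lower (background 29.9%) and 1 not called, with a median log2 fold change of 0.34. Gcnt1, which makes the core 2 branch on CD43 and CD45, rose from 1.04 ± 0.391 to 4.84 ± 0.173 CPM (log2 fold change 2.24 ± 0.23, edgeR adjusted p = 1.68e-08). Gcnt2 is counted in this list, although it branches N-acetyllactosamine chains into the I antigen and is not an enzyme of core 1 or core 2. Gcnt2 was at 4.52, 4.75 and 3.95 CPM in ctrl-Treg and 37.6, 35.8 and 39.0 CPM in Sora-Treg libraries (log2 fold change 3.08 ± 0.08, edgeR adjusted p = 9.05e-19). Of the transferases that start O-glycans, Galnt6 rose by 0.93 and Galnt11 by 0.55, whereas Galnt7 fell by 0.74 and Galnt10 by 0.26 on the log2 scale.

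Sialic acid caps galactose, and α2,6-linked sialic acid hides N-acetyllactosamine from galectin-1. All 18 listed genes of sialylation were tested, with 6 higher (background 29.7%), 8 lower (background 29.9%) and 4 not called. The median log2 fold change was -0.11. St6gal1, the α2,6-sialyltransferase of N-glycans, rose from 370 ± 2.34 to 530 ± 5.46 CPM (log2 fold change 0.52 ± 0.03, edgeR adjusted p = 3.59e-14). The α2,3-sialyltransferase genes St3gal4 and St3gal1 rose by 0.69 and 0.38, Cmas, which activates sialic acid, by 0.66, and St8sia4, a polysialyltransferase gene, by 0.73 on the log2 scale. Gne, of the first step of sialic acid synthesis, fell by 0.59, St6galnac4 by 0.54 and St8sia6 by 1.92, the last from 7.50 to 1.98 CPM. St3gal5, of ganglioside synthesis, is marked in the plot of these lists although chosen after its values were seen, and fell by 1.24.

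**Figure D4:**
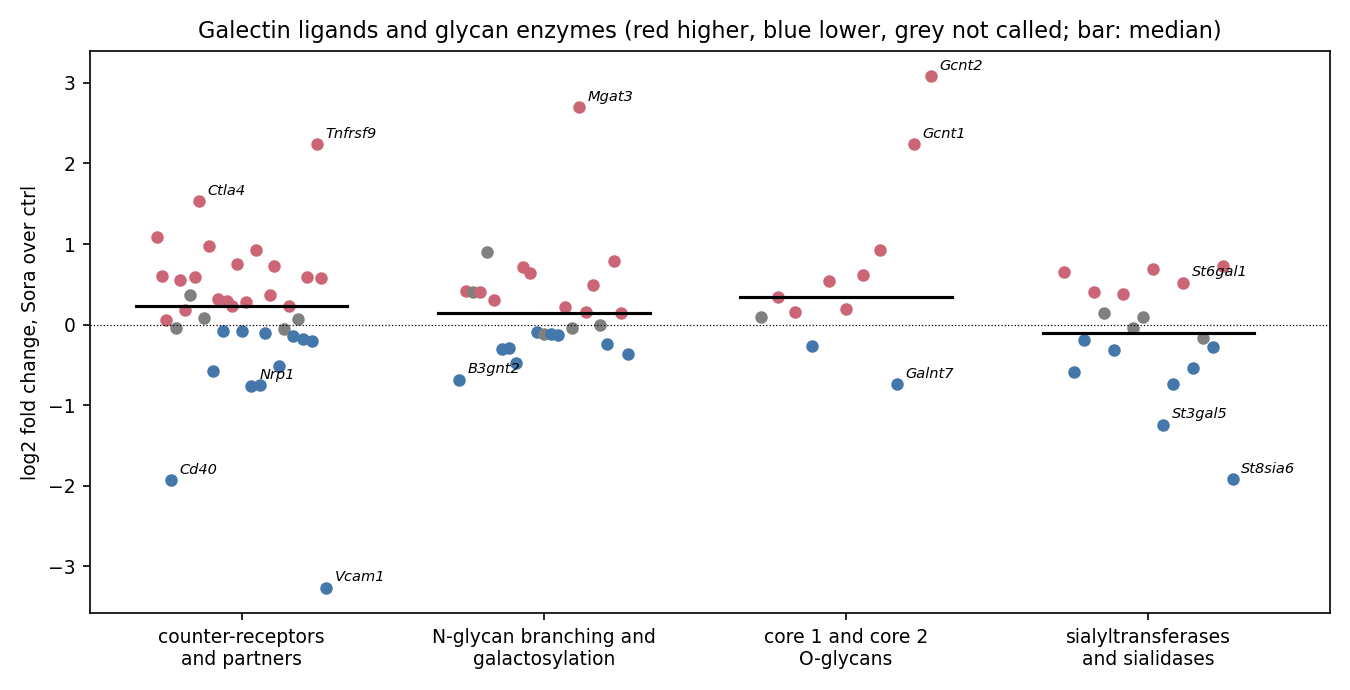
Log2 fold change of Sora-Treg over ctrl-Treg cells (vertical axis) for each tested gene of 4 lists, red where higher, blue where lower and grey where not called, with a black bar at the list's median (0.23, 0.15, 0.34 and -0.11 from left to right). Genes of every list went both ways, from Vcam1 (-3.27, with 11, 5 and 9 counts in Sora-Treg libraries) to Gcnt2 (3.08).

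Lgals9 and Lgals3bp were set beside other genes that interferon induces. Of 28 listed genes, 27 were in the table and tested. Of these, 3 rose (background 29.7%), 22 fell (background 29.9%) and 2 were not called. The median log2 fold change was -0.69, so that Lgals9 (-0.53) and Lgals3bp (-0.79) stood on either side of that median. The viral RNA sensor gene Ifih1 fell from 19.2 ± 0.874 to 7.19 ± 0.317 CPM (log2 fold change -1.42 ± 0.09, edgeR adjusted p = 2.13e-12). The antiviral gene Oasl2 fell by 2.73 on the log2 scale, from a low level of 2.72 to 0.407 CPM. Ddx60 fell by 1.61, the pro-apoptotic gene Xaf1 by 1.09, Bst2, which encodes tetherin, by 0.51 and Trim30a by 0.38 on the log2 scale. Against this direction, Zbp1, a sensor of Z-form nucleic acid, rose from 20.9 ± 0.966 to 48.7 ± 5.45 CPM (log2 fold change 1.22 ± 0.07, edgeR adjusted p = 6.96e-13), and Dhx58, a regulator of viral RNA sensing, rose by 0.91. Stat2, of the interferon signalling complex, also rose, by 0.17, but was not among the genes to be named by rule and was chosen after its values were seen. Both groups were cultured with an antibody against IFN-γ. Myeloid cells also express these genes, and their markers were lower in 7 of 12 tests, with a median log2 fold change of -1.54. The part of myeloid cells in the result was not tested.

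**Figure D5:**
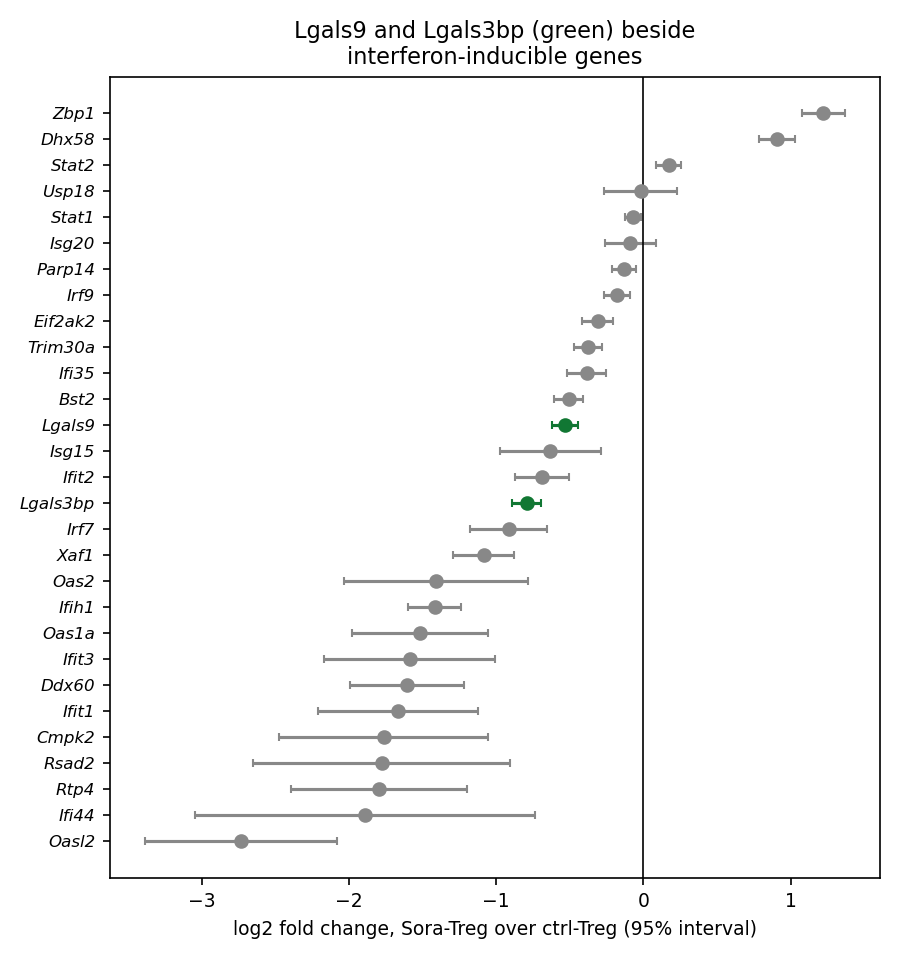
Log2 fold change of Sora-Treg over ctrl-Treg cells (horizontal axis) with its 95% interval for 27 interferon-inducible genes (grey), Lgals9 and Lgals3bp (green), ordered by value. Most points lay below 0, with Lgals9 at -0.53 and Lgals3bp at -0.79, while Zbp1 (1.22), Dhx58 (0.91) and Stat2 (0.17) were above.

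For each gene, the tested genes most alike in pattern over the 6 libraries were found by the root mean square difference between log2 CPM profiles, each centred on its own mean. With 2 groups, such likeness follows mainly from a similar fold change. Closest to Lgals3 were Lilrb4a, an inhibitory receptor gene (difference 0.0569), Pik3ap1, an adaptor gene of PI3K signalling (0.0824), and Tnfrsf8, which encodes CD30 (0.0831). Acap1 (0.0177), Bsg, which encodes basigin (0.0200), and Treml2 (0.0258) were closest to Lgals1. Lgals9 was most like Nsd2, a histone methyltransferase gene (0.0198), the kinase gene Csnk1e (0.0254) and the early response gene Ier2 (0.0270). Lgals3bp was most like the nucleoside transporter gene Slc29a3 (0.0195), Angptl6 (0.0259) and the stress response gene Gadd45b (0.0312), and Lgals8 most like Aprt, of purine salvage (0.0211), and Pwwp2a (0.0234). The differences for Lgals3 were the largest.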

How the data were processed

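Raw counts for each gene symbol in 6 libraries were deposited by the authors, and the sample titles gave the groups and replicate numbers. The submitters' processing notes list fastp, HISAT2, HTSeq, R 3.2.0, DESeq2 and GRCm39, whereas the methods of the study name Bowtie2 and GRCm38. Which were used for these counts, the annotation and the strand setting were not given in the sources used here. The deposited FPKM values equalled the count over the gene's length and the library's total (largest relative difference 1.64e-06 over 20237 genes), so they are no separate measurement, and served for levels per length and shares.

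Counts were tested with edgeR 4.0.16 in R 4.3.3 (TMM scaling, filterByExpr, quasi-likelihood test, no covariate). Standard errors are those the F statistics imply. DEGs pass 0.05 in adjusted p and 1 in absolute log2 fold change. Intervals cover 95%. Alternatives were RLE, upper quartile and total scaling, 2 other filters (a count of 1 in any library, or 1 CPM in 3 libraries), DESeq2 1.42.0, robust fitting, a replicate block, each library left out, and limma 3.58.1 on log2(FPKM + 1), with and without a filter at a mean FPKM of 1, or log2(FPKM + 0.1). The pipeline was tested on simulated data with 200 changed genes, of which edgeR recovered 100%, with 4.76% false among those called. With so few changed genes, it could not check the scaling of these data, where 59.6% of tested genes were called. The genes and lists were chosen with earlier results of these data known. Genes named from a list were the 8 called with the smallest adjusted p at most, plus Ptprc, Spn, Cd44, Havcr2, Lag3, Nrp1, Mgat5, Gcnt1, St6gal1 and B3gnt2. For likeness, the 3 closest genes among those averaging 3 or more in log2 CPM were named, without symbols of unnamed gene models. A few genes that these rules name are not reported here. No columns of other samples were found.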

Additional observations from a re-analysis of the deposited data

How the results depend on the processing

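Lgals1, Lgals3, Lgals9 and Lgals3bp kept their direction and call in all 17 alternatives, with log2 fold changes of 0.89 to 1.03, 2.27 to 2.56, -0.65 to -0.50 and -0.91 to -0.75. Lgals8 did so in 12 of 17. Its log2 fold change was -0.1536 in DESeq2, and -0.2002 to -0.1218 with single libraries left out, where the call was lost without ctrl-Treg replicate 1, ctrl-Treg replicate 2, Sora-Treg replicate 1 or Sora-Treg replicate 2. Of 59 other named genes, 51 did not change call or direction in any alternative. Scaling by library totals shifted the median over all genes to -0.119 (log2 fold change) and the calls to 2862 higher and 5614 lower, against 3994 and 4028 as reported, and relative to that shift Lgals1, Lgals3, Lgals9 and Lgals3bp stood on the same side. Havcr2 turned to -0.0370 with library totals and -0.0120 in limma without a filter, and ranged from -0.0205 (without ctrl-Treg replicate 3) to 0.148 with libraries left out. Mgat5 turned to 4.53e-04 with RLE scaling and ranged from -0.0381 to 0.0347 with libraries left out, and was called lower with library totals (-0.119) and in limma with the filter (-0.112 and -0.120). Cd44 was called lower with upper quartile scaling, library totals and all 3 limma fits. Among other lectins, Mlec turned to -0.00234 with library totals, -0.00233 in limma with a pseudocount of 1, with or without the filter, and -0.00236 with 0.1, and Calr to -0.0111, -0.0115, -0.0115 and -0.0115. In limma on FPKM with a pseudocount of 1, with 0.1 and with 1 but no filter, the genes called higher were 7, 7 and 7 of the N-glycan list (11 as reported), 4, 4 and 5 of the O-glycan list (8 as reported), 2, 2 and 2 of the other lectins (8 as reported) and 2310, 2305 and 2577 of all genes. With the filter, 14 and 14 interferon-inducible genes were called lower instead of 22, with 18 tested in place of 27. Other lectins called higher were also 5 with upper quartile scaling, 3 with library totals and 4 to 8 with libraries left out, fewest without Sora-Treg replicate 3. DEGs in these 3 limma fits were 259 higher and 182 lower, 340 and 343, and 274 and 185, against 848 and 669 as reported, and DEGs among interferon-inducible genes that were lower were 1, 4 and 1 against 12. By counts rather than FPKM, the share differences between Sora-Treg and ctrl-Treg cells were 9.79 percentage points for Lgals1, 12.5 for Lgals3, -5.77 for Lgals8 and -16.6 for Lgals9, instead of 5.67, 8.36, -2.18 and -11.8. Without Lgals8 they were 4.10 for Lgals1 and -12.5 for Lgals9, and with Lgals4, Lgals7 and Lgalsl added, an alternative chosen after seeing the data, 6.42 and -11.1. FPKM is itself scaled by library totals, so the limma fits and the fit scaled by totals are not separate settings in this respect. In the filtered limma fits the median log2 fold change over all genes was -0.104 and -0.118. The cause of the changes listed here was not tested.

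With the replicate number as a block (replicate block), 4057 genes were higher and 4064 lower, Lgals8 was at -0.1542, and no call of the 5 genes changed. Correlations of same-numbered libraries were -0.0438, 0.0591 and 0.0299, so the numbers were not treated as pairs. Counts below about 3 per library, as for Lgals12, could not be read as a level at this depth.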

Other observations

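Lectins other than galectins were also examined. Of 23 listed genes, 17 could be tested, with 8 higher (background 29.7%), 6 lower (background 29.9%) and 3 not called. The median log2 fold change was 0.07. Os9 and Erlec1, lectins of the endoplasmic reticulum that direct misfolded glycoproteins to degradation, rose, with log2 fold changes of 0.65 ± 0.03 and 0.51 ± 0.06 (edgeR adjusted p = 3.59e-14 and 7.46e-08). M6pr, of lysosomal enzyme sorting, fell by 0.27 and Lman1, a cargo receptor gene of the early secretory pathway, by 0.18. The chaperone lectin genes Calr and Mlec were higher by 0.10 and 0.11, values whose direction turned when libraries were scaled by their totals. Cd22, a B cell lectin gene, fell by 2.15 from 0.419 ± 0.126 CPM, and the summed B cell markers were lower as well, while their part in the result was not tested.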
